A study of Mus musculus with 8 samples.

Results

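Forkhead genes encode transcription factors that share a winged-helix DNA-binding domain. In this lung series they were taken as every row of the count table whose symbol starts with Fox, a letter from a to s and a digit, leaving out Foxj1 and Foxp3. The pattern matched 41 rows, and 39 of the 18824 genes in the table were members. The annotation deposited with the counts placed 38 of them in its forkhead transcription factor family, Foxr1 being the exception. The series holds 8 bulk RNA sequencing libraries of mouse lung and concerns SLC15A3, a proton-coupled transporter of histidine and peptides in endolysosomes, in pulmonary fibrosis. Libraries titled WT_BLM (n = 4) came from wild-type mice and those titled SLC15a3_KO_BLM (n = 4), here KO_BLM, from Slc15a3-/- mice. Both groups received bleomycin, a DNA-breaking drug that scars rodent lung, at 2 mg/kg in 50 µl saline through the trachea on day 0 at 8 weeks of age, and were killed on day 21. The labels used here give no strain, sex or knockout allele, and saline-treated lungs were not analysed here. Whether the libraries came from separate animals is not stated, so p-values reflect only how far these libraries differ, possibly for technical reasons. Any difference in handling between the groups cannot be told apart from genotype.

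Forkhead factors contact DNA mainly through the recognition helix of that domain and bind variants of the sequence TGTTTAC. Individual members mark tissues and cell states. FOXA1 and FOXA2 open chromatin in endoderm and act in lung epithelium, FOXF1 and FOXF2 act in lung mesenchyme and endothelium, FOXC1 and FOXC2 in vessels and lymphatics, and FOXP factors in epithelial and lymphocyte development. FOXO factors are held outside the nucleus by AKT signalling and otherwise switch on genes of stress resistance and quiescence, and FOXM1 drives genes of mitosis.

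Of the 39 members, 30 had a summed count of 10 or more over the 8 libraries. The other 9 had 1 to 5 counts each. Among them Foxi1, the regulator of airway ionocytes, had 1 count in all. A filter on low counts left 24 members for testing. Levels between genes were compared per length, as the deposited FPKM, counts scaled by gene length and library total.

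**Figure D1:**
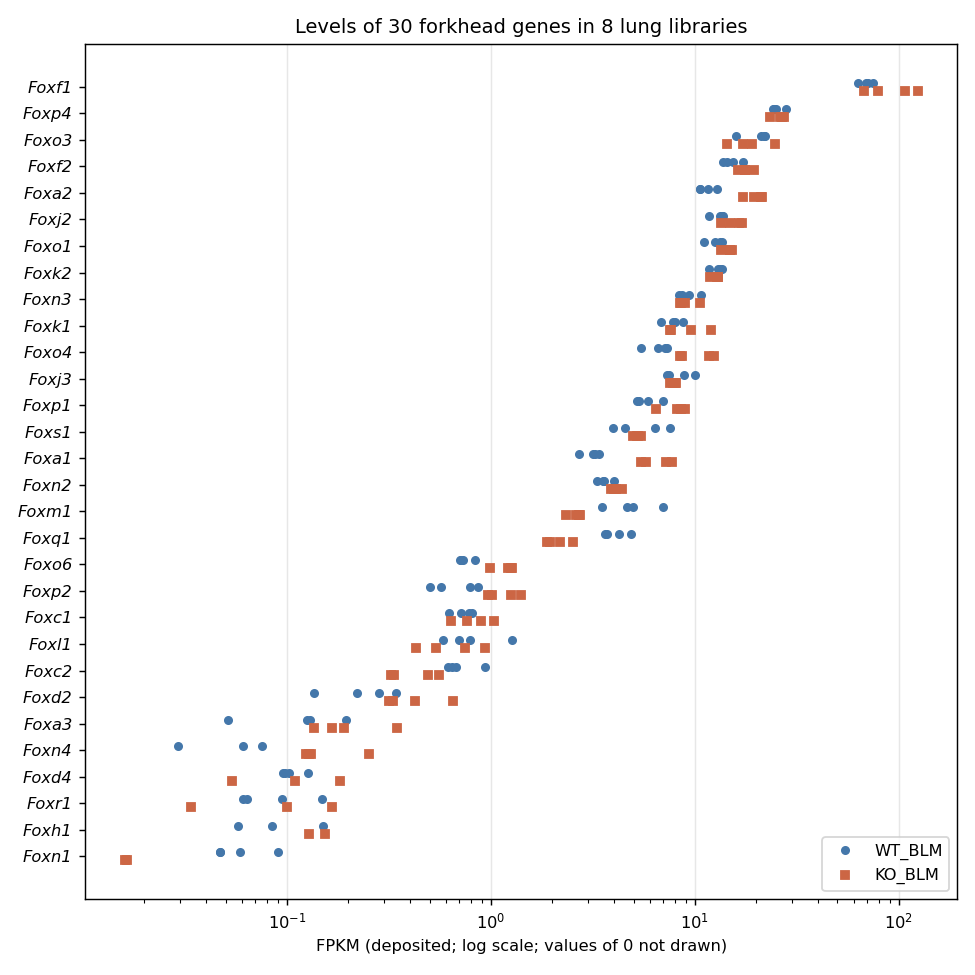
FPKM (horizontal, log scale) of the 30 forkhead genes with a summed count of at least 10, ordered by their mean, with WT_BLM libraries as circles and KO_BLM libraries as squares. Foxf1 lies highest in all 8 libraries, from 63.0 to 124 FPKM, and the members below Foxd2 lie below 0.4 FPKM.

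Foxf1, which lung endothelium and mesenchyme need for development, was the most abundant forkhead transcript at 69.4 ± 4.86 FPKM (SD, n = 4) in WT_BLM. Its lowest library, 63.0 FPKM, lay above the highest library of the next gene, Foxp4, at 27.8 FPKM. Below Foxp4, at 25.3 ± 1.68 FPKM, came the FOXO gene Foxo3 at 20.2 ± 2.84 FPKM and Foxf2 at 15.2 ± 1.47 FPKM. Foxj2, Foxk2, Foxo1 and Foxa2 followed at 13.05 to 11.4 FPKM, and their WT_BLM ranges overlapped from each gene to the next. Of the 29 steps in the order of WT_BLM means, 5 separated genes whose 4 values did not overlap. These were below Foxf1, Foxp4, Foxf2, Foxa1 and Foxp2. Of the tested members, 18 had a mean of at least 1 FPKM over the 8 libraries, and the median tested member, at 7.53 FPKM, lay near the median of all tested genes, 7.44 FPKM.

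Between the groups, 6 forkhead genes rose in KO_BLM (Foxa1, Foxa2, Foxo4, Foxo6, Foxp1 and Foxp2), 3 fell (Foxc2, Foxm1 and Foxq1) and 15 were not called. This is by edgeR's quasi-likelihood test on counts with Benjamini-Hochberg adjustment over all 14746 tested genes, at 0.05. Of all tested genes 41.5% were called, 20.7% higher and 20.8% lower in KO_BLM, and the 9 of 24 forkhead genes made 37.5%, a share near that background. For 8 members, 33.3%, no library of one group reached into the other group's range, against 40.9% of all tested genes. Of these, 5 lay above in KO_BLM (20.3% of all genes) and 3 below (20.7% of all genes). The median log2 fold change of the members was 0.12 (0.0025 over all genes), and the median absolute change was 0.27 (0.32 over all genes). Over these 24 tested members the log2 fold changes ran from -1.03 to 0.97, and leaving out 1 library gave 4 to 8 called members. The lowest, 2 higher and 2 lower, came without KO_BLM replicate 2, when 4494 genes in place of 6118 were called overall. The number of members called higher was 3 without WT_BLM replicate 1 or 3. Under scaling by library totals, 62.7% of the genes called were higher in KO_BLM against 50.0%, and the forkhead genes counted 6 higher and 2 lower.

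**Figure D2:**
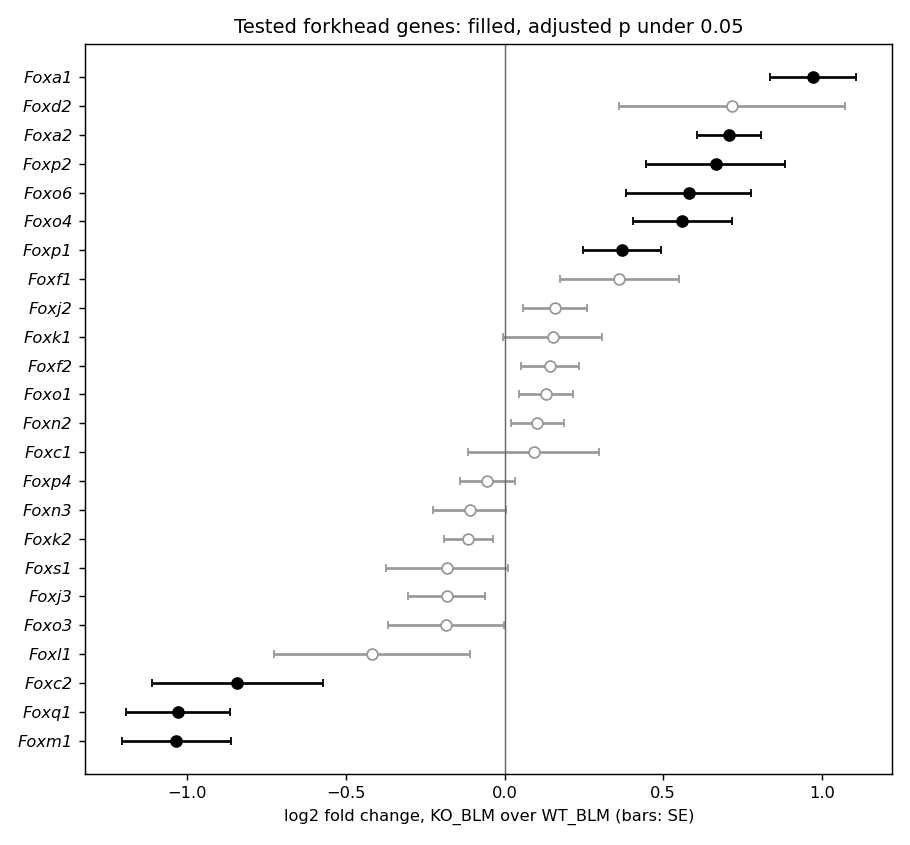
Log2 fold change of KO_BLM over WT_BLM with its SE for the 24 tested forkhead genes, filled where the edgeR adjusted p was under 0.05. Changes run from -1.03 for Foxm1 to 0.97 for Foxa1.

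The labels were checked on the targeted gene. Slc15a3 was at 45.8 to 55.7 CPM in WT_BLM and 0.279 to 0.938 CPM in KO_BLM (edgeR adjusted p = 9.36e-07, log2 fold change -6.36 with SE 0.23). CPM (counts scaled to a common library total) used library sizes scaled by edgeR's TMM factors. Total counts ran from 17627999 to 20180831 per library. The tissue showed the markers of lung: the sum over 12 type 2 alveolar cell markers was 9836 to 14049 CPM in WT_BLM and 25804 to 38807 CPM in KO_BLM. In bulk samples, fewer cells of a type and less RNA per cell cannot be told apart. Marker sums of some other cells differed between the groups as well. Lymphocyte markers (14 genes) were at 70.04 to 192 CPM in WT_BLM and 322 to 481 in KO_BLM, ciliated cell markers (12) at 156 to 231 and 532 to 672, and fibroblast markers (14) at 13452 to 15754 and 4679 to 5223. The fibroblast genes went both ways, 8 called lower and 5 higher, with log2 fold changes from -2.96 to 1.69. The sums of 15 endothelial genes, 9 of them called higher and 2 lower, overlapped, at 4361 to 5451 and 5043 to 7904 CPM. Those of 15 macrophage and monocyte genes, 10 called lower and 2 higher, overlapped too, at 7117 to 8809 and 7839 to 10486 CPM. The part of these cell types in the results was not tested.

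Foxa1 and Foxa2, the pioneer factors of endodermal epithelium, rose together. Foxa1 (NCBI Gene 15375, GRCm38 chromosome 12 from 57540628 to 57548029) was at 17.3, 13.8, 17.7 and 17.5 CPM in WT_BLM replicates 1 to 4 and at 29.4, 38.9, 26.8 and 34.8 CPM in KO_BLM replicates 1 to 4. Every knockout library lay above every wild-type library, and the rise was 1.96-fold (edgeR adjusted p = 0.000622, log2 fold change 0.97 with SE 0.14). Foxa2 (chromosome 2 from 148042877 to 148046969) was at 26.3, 25.1, 27.6 and 32.5 CPM in WT_BLM and 40.9, 45.4, 48.3 and 47.3 CPM in KO_BLM. Again the groups did not overlap, and the rise was 1.63-fold (edgeR adjusted p = 0.000658, log2 fold change 0.71 with SE 0.10). The ratio of Foxa1 to Foxa2 overlapped between the groups, 0.539 to 0.659 in WT_BLM and 0.556 to 0.856 in KO_BLM, a difference of 0.25 on the log2 scale (exact permutation p = 0.143, two-sided, n = 4 per group). Foxa3, the third member, was at most 0.678 CPM in any library, with 20 counts in WT_BLM and 31 in KO_BLM.

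Type 2 cell markers were higher in KO_BLM too, and the FOXA transcripts were set against them, a ratio chosen after the values were seen. Per 1000 CPM of the 12 marker genes, Foxa2 was at 1.91 to 2.55 CPM in WT_BLM and 1.05 to 1.83 CPM in KO_BLM, with no overlap. Foxa1 was at 1.24 to 1.41 and 0.758 to 1.35, which overlap. The log2 fold changes of the 12 markers ran from 0.18 to 2.65, so these ratios depend on which genes are summed. They do not give FOXA levels per type 2 cell. Of 19 tested epithelial genes listed as FOXA-bound, 11 rose and 1 fell, 63.2% against 41.5% of all genes, with a median log2 fold change of 0.70. Sftpa1, surfactant protein A, rose 3.85-fold, Cyp2f2, a club cell cytochrome P450, 4.58-fold, Sftpc, surfactant protein C, 2.83-fold and Nkx2-1, the lung identity factor, 1.68-fold. Ctsh, a lysosomal protease of type 2 cells and other cells, fell 2.49-fold and was named after its values were seen. The list shares 5 genes with the type 2 cell markers, the 4 surfactant protein genes and Abca3. It also shares Scgb1a1, Scgb3a2, Cyp2f2, Bpifa1, Muc5b, Agr2 and Spdef with a list of 10 airway club and goblet cell markers. The sum of those 10 was 2957 to 9499 CPM in WT_BLM and 11553 to 22979 CPM in KO_BLM, without overlap. Of 9 airway markers tested, 5 were called higher and 0 lower.

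One forkhead sequence match lay close to a start site of Foxa1 itself. The RefSeq table of 300-base promoter windows (250 bases before and 50 after a start, GRCm38.p6) held 24 of the 39 members. For each member only 1 window was searched, that of the outermost start. The letters TGTTTAC, searched on both strands, occurred in 1 of these 24 windows. They occurred in 3.65% of all 32851 windows, where a gene can have several. The match, in capitals, stood 141 bases before the annotated start on the minus strand, from 57546246 to 57546252 on chromosome 12. It is shown within 29 bases, chr12:57546235-57546263.
Foxa1: tatactgctttGTAAACAaagtgagggcc
The match falls inside the annotated span of Foxa1, which begins further upstream. For Foxa2 and Foxp1, the other called members with an entry, the window searched, 1 of 3 for each gene, held no such letters. A match describes the sequence and does not show binding.

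**Figure D3:**
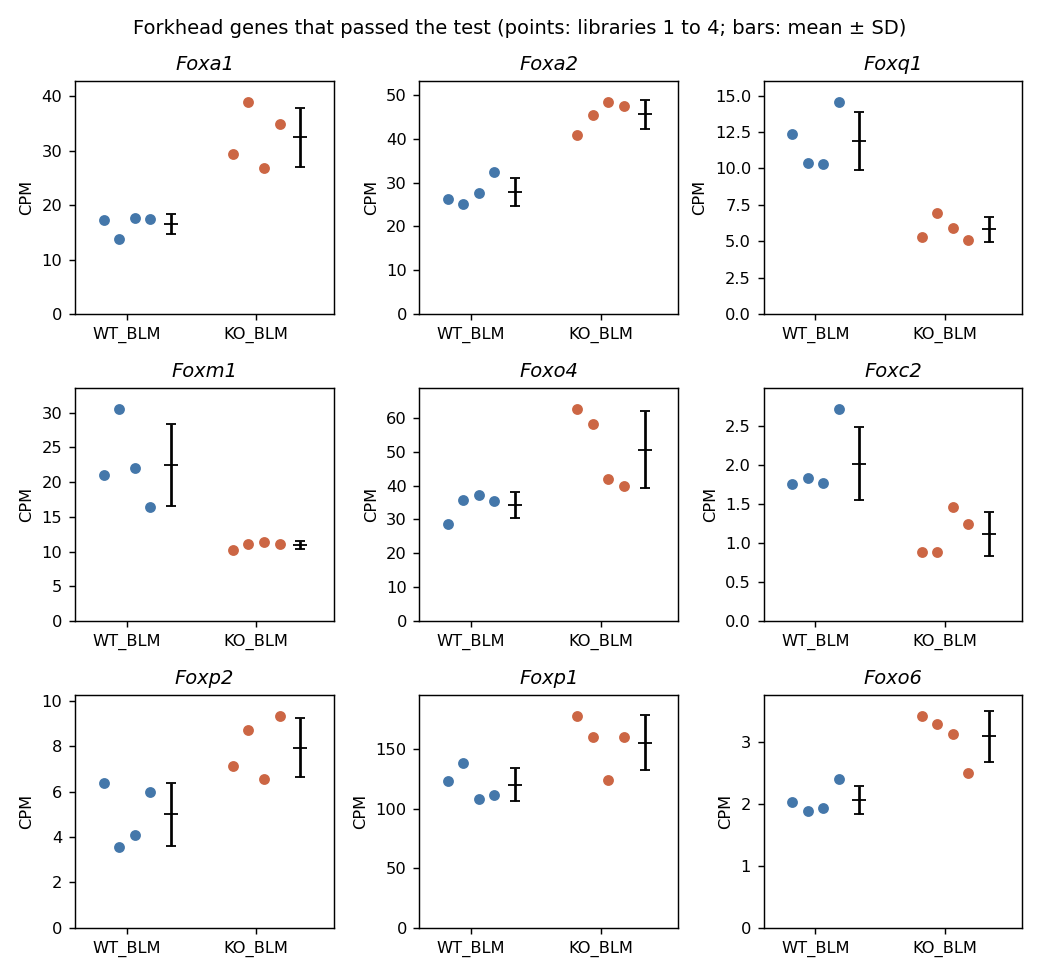
CPM of the 9 forkhead genes that passed the test, in each of the 4 WT_BLM and 4 KO_BLM libraries (points, replicates 1 to 4 from left to right), with mean ± SD beside them. The groups do not overlap except for Foxp1, where KO_BLM replicate 3 lies within the WT_BLM range.

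Foxm1, the activator of mitotic genes, fell. Foxm1 (chromosome 6 from 128362994 to 128375886) was at 21.1, 30.5, 22.0 and 16.4 CPM in WT_BLM and at 10.2, 11.2, 11.4 and 11.2 CPM in KO_BLM. The wild-type libraries were spread widely and the knockout libraries lay together below them all. It was 2.05-fold lower (edgeR adjusted p = 0.00151, log2 fold change -1.03 with SE 0.17). Rhno1, a DNA damage response gene whose annotated span lies 0.083 kb from that of Foxm1, was at 22.7 ± 1.97 and 23.7 ± 1.34 CPM (SD, n = 4) and was not called (edgeR adjusted p = 0.623, log2 fold change 0.06 with SE 0.09). Rhno1 was singled out after its values were seen.

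Of 25 listed mitotic genes, most of them known FOXM1 targets, 13 fell, 0 rose and 12 were not called, 52% called against 41.5% of all genes, with a median log2 fold change of -0.75. At an unadjusted p under 0.05 edgeR gave 1 higher, Cdc25b (log2 fold change 0.43), and DESeq2 and limma-voom each called 1 of the 25 higher. Cdc25c, a phosphatase that starts mitosis, fell 2.97-fold, Ccnb1, cyclin B1, 2.34-fold, Birc5, survivin, 2.25-fold and Ccnb2, cyclin B2, 2.06-fold. Summed over the 25 genes, the level was 337, 508, 393 and 229 CPM in WT_BLM and 216, 220, 255 and 285 CPM in KO_BLM. The summed levels overlapped between the groups, since WT_BLM replicate 4 lay among the knockout libraries, whereas for Foxm1 it lay above them all. Without WT_BLM replicate 4, 19 of the 25 genes fell, and over all libraries left out in turn 11 to 19 did. Per 1000 CPM of these genes, Foxm1 was at 56.0 to 71.5 CPM in WT_BLM and 39.2 to 50.7 CPM in KO_BLM.

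**Figure D4:**
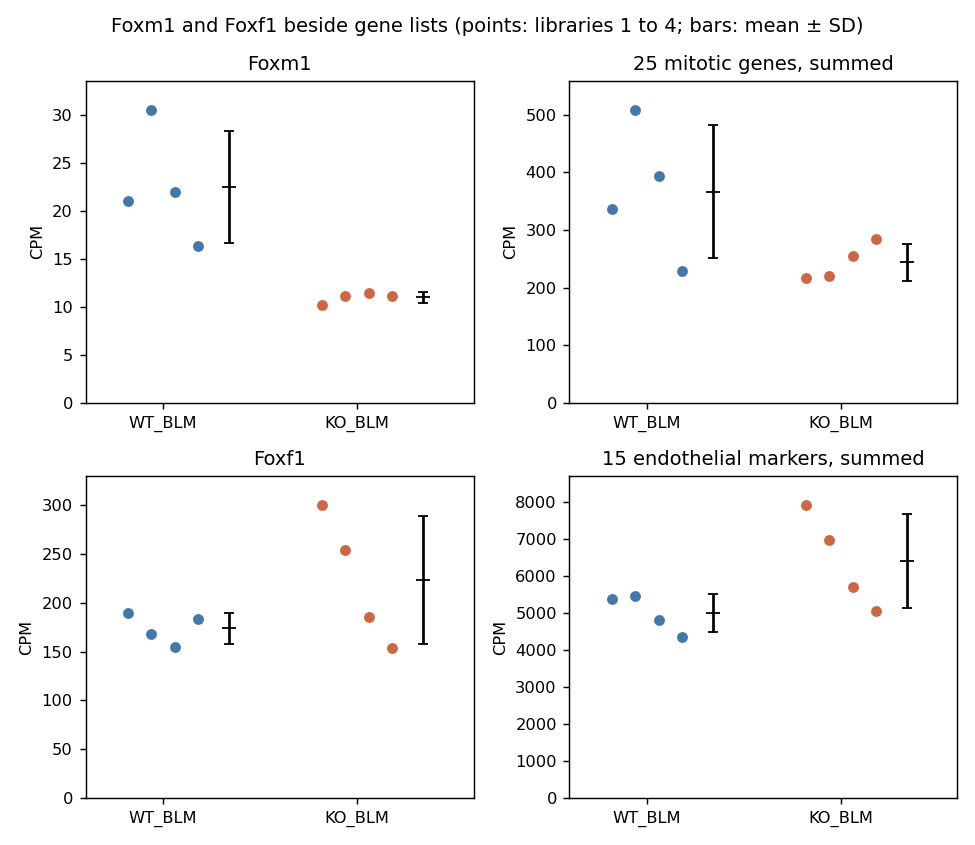
CPM of Foxm1 and Foxf1 (left) and summed CPM of 25 mitotic genes and 15 endothelial markers (right) in each library (points, replicates 1 to 4 from left to right), with mean ± SD. Foxm1 is below 11.5 CPM in all 4 KO_BLM libraries, and the KO_BLM values of Foxf1 spread from 154 to 299.7 CPM.

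Foxq1, a factor of epithelial differentiation that is often raised in carcinoma cells, fell by a like amount. Foxq1 (chromosome 13 from 31558170 to 31560976) was at 12.4, 10.4, 10.3 and 14.5 CPM in WT_BLM and at 5.29, 6.97, 5.89 and 5.11 CPM in KO_BLM. No library of one group reached the other, and Foxq1 was 2.04-fold lower (edgeR adjusted p = 0.00123, log2 fold change -1.03 with SE 0.16). Foxc2, which lymphatic valves require, fell 1.79-fold at a low level. It was at 1.76, 1.84, 1.77 and 2.72 CPM in WT_BLM and 0.881, 0.893, 1.46 and 1.25 CPM in KO_BLM (edgeR adjusted p = 0.0309, log2 fold change -0.84 with SE 0.27). Foxc2 was no longer called without WT_BLM replicate 4 (adjusted p = 0.0751), without KO_BLM replicate 1 (0.0774) or 2 (0.0917) and with library totals alone (0.0505). Foxc1, its close relative, was at 2.48 to 3.43 CPM in WT_BLM and 2.53 to 3.86 CPM in KO_BLM and was not called (edgeR adjusted p = 0.746, log2 fold change 0.09 with SE 0.21). The value for Foxc1 turned to -0.015 without KO_BLM replicate 4. The Foxc1 to Foxc2 ratio was 1.26 to 1.84 in WT_BLM and 2.00 to 3.94 in KO_BLM, with no overlap.

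Foxq1 and Foxc2 lie in 2 groups of neighbouring forkhead genes, and in each group they were the only member called by this test. On chromosome 8, Foxf1 (121084386 to 121088154) lies 28.0 kb from Foxc2 (121116171 to 121118895), and Foxl1 (121127685 to 121130644) lies 8.79 kb beyond Foxc2. Foxf1 was not called, with a log2 fold change of 0.36, nor was Foxl1, a factor of gut and lung mesenchyme (edgeR adjusted p = 0.298, log2 fold change -0.42 with SE 0.31). The Foxf1 to Foxc2 ratio was 67.4 to 108 in WT_BLM and 123 to 340 in KO_BLM. On chromosome 13, Foxq1 lies 64.8 kb from Foxf2 (31625816 to 31631406), with Foxc1 (31806646 to 31810635) a further 175 kb away. The Foxq1 to Foxf2 ratio was 0.251 to 0.417 in WT_BLM and 0.127 to 0.159 in KO_BLM, and the Foxq1 to Foxc1 ratio was 3.56 to 4.24 and 1.32 to 2.09. Foxf2 to Foxc1 overlapped, at 10.2 to 14.7 and 10.1 to 16.4.

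**Figure D5:**
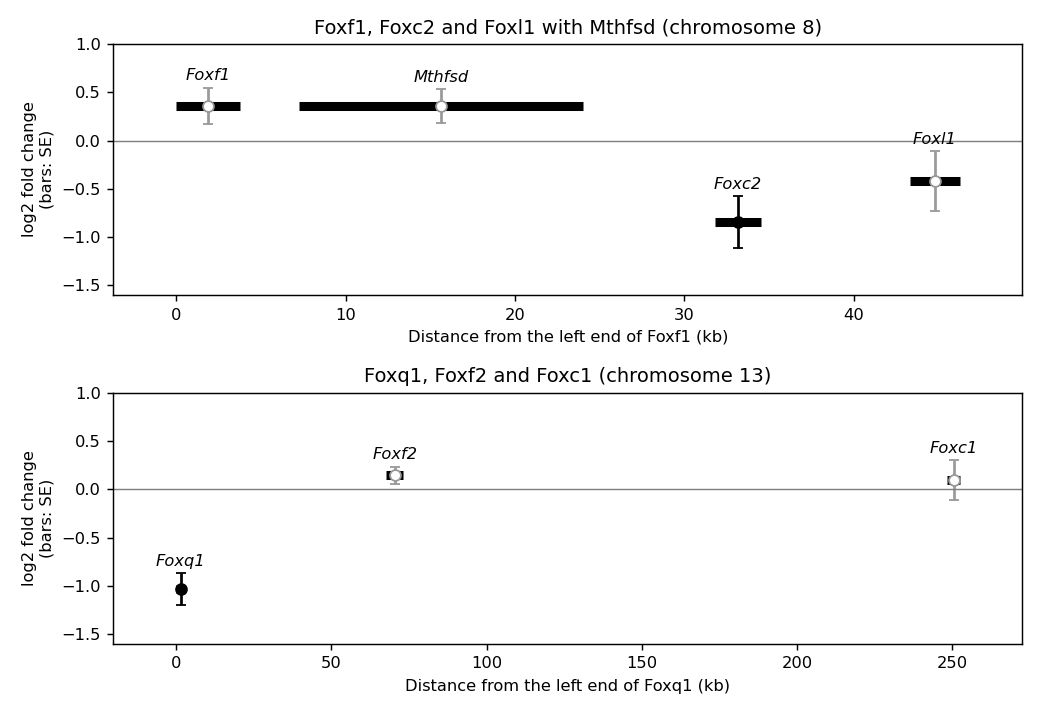
Log2 fold change of KO_BLM over WT_BLM with its SE against position, in kb from the left end of the first gene, for the forkhead neighbours on chromosomes 8 (top, with Mthfsd between Foxf1 and Foxc2) and 13 (bottom). Thick lines span each gene and filled points had an edgeR adjusted p under 0.05, which holds for Foxc2 (-0.84) and Foxq1 (-1.03).

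Ratios of 21 pairs of tested members were compared, 15 within a subfamily letter and 6 within these neighbour groups. They do not depend on library scaling. For 7 pairs the groups did not overlap: Foxc1/Foxc2, Foxo3/Foxo4, Foxo3/Foxo6, Foxp2/Foxp4, Foxf1/Foxc2, Foxq1/Foxf2 and Foxq1/Foxc1. Each had the smallest p that 4 against 4 libraries can give in a two-sided exact permutation test, 0.0286, and adjusted over the 21 pairs 0.0857, so none passed 0.05. Each of these pairs holds a called member that did not overlap by itself (Foxc2, Foxo4, Foxo6, Foxp2 or Foxq1). The ratios are therefore not separate results from those calls. Of single tested genes 40.9% did not overlap, and no such share was computed for other gene pairs. Non-member genes within 100 kb of a tested member were called about as often as genes at large, 17 of 42 (40.5%), 8 higher and 9 lower.

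Foxf1, the most abundant member, was more spread in KO_BLM than in WT_BLM. It was at 189, 168, 155 and 183 CPM in WT_BLM and at 299.7, 254, 185 and 154 CPM in KO_BLM. KO_BLM replicates 1 and 2 lay above all wild-type libraries and replicates 3 and 4 within or just below their range. The gene was not called (edgeR adjusted p = 0.143, log2 fold change 0.36 with SE 0.19), but it was without KO_BLM replicate 4 (0.50, adjusted p = 0.0342) and by limma-voom (0.49, adjusted p = 0.0207). The endothelial marker sum was spread likewise in KO_BLM, at 7904, 6973, 5706 and 5043 CPM in replicates 1 to 4, and Foxf1 per 1000 CPM of these markers was 30.8 to 42.1 in WT_BLM and 30.6 to 37.9 in KO_BLM. Among the 20 vascular genes listed as FOXF1 or FOXC targets, 7 rose and 2 fell, 45% called against 41.5% of all tested genes, with a median log2 fold change of 0.37. Pecam1, Cdh5, Kdr and Tie1 stand both on this list and among the endothelial markers. Tmem100, an endothelial membrane protein downstream of BMP signalling, rose 2.33-fold, Icam2, an endothelial adhesion molecule, 2.11-fold and Kdr, the VEGF receptor, 1.89-fold. The 2 that fell are lymphatic genes, Flt4, the VEGF-C receptor, by 1.70-fold, and Prox1, the lymphatic fate factor, by 1.98-fold. Prox1 falls outside the rule for named genes and was named after its values were seen. Without KO_BLM replicate 4, and by limma-voom, 11 of the 20 were higher.

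Foxf2 was even across the libraries, at 35.4, 36.4, 41.0 and 34.9 CPM in WT_BLM and 41.5, 45.5, 37.1 and 39.1 CPM in KO_BLM, and was not called (edgeR adjusted p = 0.229, log2 fold change 0.14 with SE 0.09). Foxs1, a gene of perivascular cells, was at 5.56 to 10.02 CPM in WT_BLM and 6.31 to 7.11 CPM in KO_BLM, so that all knockout libraries fell inside the wild-type range. Both overlapped between the groups, while the sum of 14 pericyte and smooth muscle markers, 8 called lower and 1 higher, was 2207 to 2412 CPM in WT_BLM and 1188 to 1550 CPM in KO_BLM. Those markers share Postn with the fibroblast markers. Per 1000 CPM of the 14 markers, Foxf2 was at 14.7 to 17.8 and 26.8 to 32.0 CPM, without overlap. Foxs1 was at 2.52 to 4.35 and 4.57 to 5.31 CPM, also without overlap. Because both genes overlapped and the marker sum did not, these ratios restate the lower marker sum. They do not show a rise of Foxf2 or Foxs1. Foxd2 was at 0.381 to 0.911 CPM and at 0.826 to 1.67 CPM and was not called (edgeR adjusted p = 0.131, log2 fold change 0.72 with SE 0.36).

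The 4 FOXO genes, whose products are restrained by insulin and growth factor signalling, split into Foxo4 and Foxo6, which rose, and Foxo1 and Foxo3, which were not called. Foxo4 (chromosome X from 101254261 to 101260873) was at 28.8, 35.8, 37.1 and 35.6 CPM in WT_BLM and 62.6, 58.1, 41.9 and 39.8 CPM in KO_BLM. All knockout libraries lay above the wild-type libraries, replicates 3 and 4 narrowly, and the rise was 1.47-fold (edgeR adjusted p = 0.0174, log2 fold change 0.56 with SE 0.16). Foxo4 lost its call without WT_BLM replicate 1 (adjusted p = 0.0527) or KO_BLM replicate 2 (0.0529). Foxo6, mostly known from brain, rose 1.495-fold at a low level, from 2.03, 1.88, 1.93 and 2.40 CPM to 3.42, 3.29, 3.13 and 2.50 CPM (edgeR adjusted p = 0.0377, log2 fold change 0.58 with SE 0.20). It was not called under 8 of the 18 alternatives, among them the replicate block (adjusted p = 0.0967) and 6 of the 8 libraries left out.

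Foxo3, the most abundant of the family, was at 149, 108, 151 and 158 CPM in WT_BLM and 167, 126, 113 and 91.4 CPM in KO_BLM. Both groups were spread over the same levels, and it was not called (edgeR adjusted p = 0.435, log2 fold change -0.18 with SE 0.18). Foxo1, a regulator of endothelial quiescence and lymphocyte homing, was at 77.4, 75.0, 70.1 and 66.0 CPM in WT_BLM and 84.0, 81.6, 79.6 and 70.3 CPM in KO_BLM (edgeR adjusted p = 0.245, log2 fold change 0.13 with SE 0.08). Foxo3 therefore held a smaller mean share of FOXO transcript in KO_BLM and Foxo4 a larger one. Of the summed FPKM of the 4 genes, Foxo3 held 50.1 ± 4.96% (SD, n = 4) in WT_BLM and 41.5 ± 3.25% in KO_BLM, and Foxo4 held 16.5 ± 2.31% and 22.9 ± 1.84%. The Foxo3 to Foxo4 count ratio was 3.03 to 5.17 in WT_BLM and 2.18 to 2.69 in KO_BLM, and that of Foxo3 to Foxo6 57.5 to 78.1 and 36.0 to 49.0, without overlap but with an adjusted exact permutation p of 0.0857 (n = 4 per group).

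Of 30 tested genes listed as FOXO targets, 7 rose and 3 fell, 33.3% called against 41.5% of all genes, with a median log2 fold change of 0.01. Cat, catalase, rose 2.05-fold, Cdkn1b, the cell cycle inhibitor p27, 1.53-fold and Bbc3, the death gene PUMA, 1.41-fold. The 3 that fell were Cdkn1a, the cell cycle inhibitor p21 (1.37-fold), Irs2, an insulin receptor substrate (1.59-fold) and Pik3ip1, an inhibitor of PI3 kinase (1.598-fold), named after their values were seen. Of 24 genes for kinases and other regulators upstream of FOXO, 3 rose and 6 fell, 37.5% called against the same 41.5%. Akt1, the kinase that excludes FOXO from the nucleus, fell 1.502-fold and Sgk1, a related kinase, 2.61-fold, while Stk4, a kinase that favours nuclear FOXO, rose 1.43-fold. These are transcript levels, and FOXO activity depends on phosphorylation that was not measured here.

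In the FOXP group, Foxp1 and Foxp2 rose and Foxp4 was not called. Foxp1, which acts in lung epithelium and in B and T cells, was at 123, 139, 108 and 111 CPM in WT_BLM and at 178, 160.1, 124 and 159.8 CPM in KO_BLM. KO_BLM replicate 3 lay within the wild-type range, and the rise was 1.29-fold (edgeR adjusted p = 0.0357, log2 fold change 0.37 with SE 0.12). Leaving out any of 6 single libraries (WT_BLM replicate 1, 3 or 4, KO_BLM replicate 1, 2 or 4) ended that call, with adjusted p from 0.0701 to 0.0933. Foxp2, restricted in lung mainly to distal epithelium, was at 6.38, 3.57, 4.07 and 5.99 CPM in WT_BLM and at 7.11, 8.70, 6.57 and 9.33 CPM in KO_BLM. The groups lay close but apart, and Foxp2 rose 1.59-fold (edgeR adjusted p = 0.0339, log2 fold change 0.67 with SE 0.22). It was not called without WT_BLM replicate 2 (adjusted p = 0.0731) or 3 (0.0841) or KO_BLM replicate 2 (0.0913) or 4 (0.0870).

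Foxp4 was at 103, 96.1, 111 and 103 CPM in WT_BLM and 106, 107, 88.6 and 97.1 CPM in KO_BLM (edgeR adjusted p = 0.637, log2 fold change -0.05 with SE 0.09), and its log2 fold change was 0.031 with library totals alone, 0.030 with limma on log2(FPKM + 0.1) and 0.029 on log2(FPKM + 1). The Foxp2 to Foxp4 ratio was 0.0365 to 0.0618 in WT_BLM and 0.0669 to 0.0961 in KO_BLM. Among the 20 genes for partners of FOXP and FOXK proteins, mostly corepressor subunits, 2 rose and 6 fell, 40% called, near the 41.5% of all genes. Runx1, a factor of blood cells and activated epithelium, fell 2.24-fold, Asxl1, a chromatin adaptor, 1.41-fold, while Ogt, the O-GlcNAc transferase, rose 1.59-fold.

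The broadly expressed members were not called. Foxj2 was at 71.8, 66.6, 68.5 and 62.6 CPM in WT_BLM and 82.2, 83.5, 71.9 and 63.3 CPM in KO_BLM (log2 fold change 0.16, edgeR adjusted p = 0.225). Foxj3 was at 59.1, 48.1, 47.1 and 68.3 CPM and at 51.8, 50.6, 46.5 and 47.3 CPM (log2 fold change -0.18, edgeR adjusted p = 0.248). For Foxj2, 3 of the 4 knockout libraries lay above the wild-type range, and for Foxj3 the wild-type libraries were the more spread. Foxk1, which with FOXK2 represses autophagy genes, was at 60.7, 65.5, 60.2 and 54.5 CPM and at 89.2, 70.5, 54.2 and 53.8 CPM (log2 fold change 0.15, edgeR adjusted p = 0.457). Its KO_BLM replicates 1 and 2 were high and 3 and 4 low, as for Foxf1 and Foxo4, and its value was -0.018 without KO_BLM replicate 1. Foxk2 was at 63.2, 67.1, 71.0 and 73.5 CPM and at 66.9, 65.7, 59.2 and 62.1 CPM (log2 fold change -0.11, edgeR adjusted p = 0.263).

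Foxn3, a repressor with a role in the DNA damage checkpoint, was at 86.0, 73.4, 77.0 and 99.99 CPM in WT_BLM and 75.0, 76.8, 89.8 and 69.8 CPM in KO_BLM (log2 fold change -0.11, edgeR adjusted p = 0.466). Its relative Foxn2 was at 32.5 to 36.9 and 34.5 to 40.5 CPM (log2 fold change 0.10, edgeR adjusted p = 0.347). The groups overlapped for both. A missed threshold does not show that these levels are equal.

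The 6 members with 10 counts or more that did not pass the filter were Foxa3, Foxd4, Foxh1, Foxn1, Foxn4 and Foxr1, with 18 to 51 counts each. Foxn1, the factor of thymic and hair follicle epithelium, had 3, 4, 3 and 6 counts in WT_BLM and 0, 0, 1 and 1 in KO_BLM. The scaled ratio of WT_BLM to KO_BLM was 7.90, with an exact 95% counting interval of 1.86 to 70.8. Foxn4, a factor of neural progenitors that also serves multiciliated cells in other vertebrates, had 5, 0, 4 and 2 counts in WT_BLM and 16, 8, 8 and 8 in KO_BLM, a scaled ratio of KO_BLM to WT_BLM of 3.68 (1.85 to 7.96). For both the groups did not overlap (exact permutation p = 0.0286, the smallest possible, two-sided, n = 4 per group), and adjusted over the 6 genes p was 0.0857. Without the filter, edgeR's test gave adjusted p = 0.0195 for Foxn1 and 0.0441 for Foxn4. For Foxa3, Foxd4, Foxh1 and Foxr1 the counting interval of the ratio included 1. The intervals cover counting error only.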

How the data were processed

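Per the labels' protocols, lung RNA was isolated with TRIzol and the 8 libraries were built with Illumina's stranded TruSeq mRNA kit. The deposited values are raw whole-number counts of reads for each gene symbol and, by the authors' own conversion, FPKM values. These equalled count over column total and 1 length per gene for 100% of values (relative tolerance 1e-06). Cufflinks, DESeq, HTSeq and Trimmomatic, and the mm10 build, are named in the submitters' processing notes without role or version. No source used here gives the aligner, annotation or strand setting, and overlapping or antisense genes may therefore share reads. Groups and replicate numbers came from sample titles, and 0 columns belonged to other samples. The knockout columns are headed PHT2_KO_BLM and were matched to the titles by number, PHT2 being another name of SLC15A3.

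Counts were tested with edgeR 4.0.16 in R 4.3.3 (TMM factors, filterByExpr with minimum count 10 and minimum total 15, robust quasi-likelihood F test, Benjamini-Hochberg adjustment at 0.05), with SE taken as the log2 fold change divided by the root of F. On simulated counts of 14746 genes, 44% of 50 genes changed 1.5-fold, 95% of 100 changed 2-fold and 100% of 50 changed 4-fold were recovered. Far fewer genes changed there than the 41.5% called in these data, and the adjusted threshold depends on that share. The recovery rates therefore do not give the power of the comparison made here, for forkhead genes or others. All library pairs within a group differed by more than sampling noise, with chi-square over its degrees of freedom from 7.48 to 58.1. In KO_BLM it was 7.48 between replicates 1 and 2 and 19.0 between replicates 3 and 4. For the other KO_BLM pairs it was 27.8 to 50.1, so these libraries lay in 2 closer pairs. In WT_BLM it ran from 15.7 to 58.1. The reason for the closer pairs was not tested. Alternatives used DESeq2 1.42.0, limma 3.58.1 and other scalings and filters.

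Members and lists were chosen with earlier results of these data known. The rule for named genes took all members, with values by library for those called and those at or above the median level, and up to 4 genes of smallest p per list. Some genes and sequences are not reported here. Gene coordinates are from RefSeq (GRCm38.p6), in which 38 of 39 members matched.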

Additional observations from a re-analysis of the deposited data

Results flagged for a closer look

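In 4 of 142 groups of 4 libraries examined, 1 library stood apart from the other 3 by most of the group's range. Chance flags about 1 group in 20. Foxa1 was at 13.8 CPM in WT_BLM replicate 2, against 17.3 to 17.7 CPM in the others. Foxc2 was at 2.72 CPM in WT_BLM replicate 4, against 1.76 to 1.84 CPM, and the gene was no longer called without that library (edgeR adjusted p = 0.0751). Foxn4 was at 0.881 CPM in KO_BLM replicate 1, against 0.417 to 0.446 CPM. The summed lymphocyte markers were at 481 CPM in KO_BLM replicate 3, against 322 to 339 CPM.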

How the results depend on the processing

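Of the 9 called members, 4 (Foxa1, Foxa2, Foxm1 and Foxq1) were called under all 18 alternatives, and of the 15 others, 14 were called under none, Foxf1 being the exception. Leaving out 1 library gave 2 to 5 forkhead genes higher and 2 to 3 lower, 1 to 3 FOXO regulators higher, 0 to 1 mitotic genes higher and 11 to 19 lower (19 without WT_BLM replicate 4, 13 with all libraries), and 5 to 11 vascular genes higher. One mitotic gene was higher with DESeq2, library totals alone, limma on log2(FPKM + 0.1), limma-voom and the replicate block (1 each). With limma-voom 11 vascular genes were higher, and 6 FOXO targets, 20 mitotic genes and 2 epithelial genes lower. With limma on log2(FPKM + 1), 3 FOXO regulators and 8 mitotic genes were lower. Same-numbered libraries deviated together hardly at all (correlations -0.092 to 0.089), so the numbers do not pair them. The replicate block called 2878 genes higher and 2824 lower, 5 FOXO targets lower, and 5 forkhead genes higher and 3 lower. The cause of these moves was not tested.

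Signs turned for Foxp4 (0.031 with library totals alone, 0.030 on log2(FPKM + 0.1), 0.029 on log2(FPKM + 1)). With 1 library left out, Foxc1 ran from -0.015 to 0.19 and Foxk1 from -0.018 to 0.24, and the log2 ratio differences ran from -0.12 to 0.053 for Foxo4 to Foxo6 and from -0.057 to 0.17 for Foxf2 to Foxc1. Scaling by library totals moved the share of higher calls over all genes from 50.0% to 62.7%, and gave 6 forkhead genes higher and 2 lower. Members below about 1 CPM rest on few counts. Leaving out libraries for the pair ratios was added after seeing the data.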
